A study of Mus musculus with 7 samples.

Results

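The glutathione enzymes and transferases of mouse haematopoietic stem cells (HSCs) were examined in young and old animals. The set held every gene of the deposited count table whose symbol begins as a glutathione transferase (Gst or Mgst with a class letter or number) or a glutathione peroxidase (Gpx with a number), together with Gclc, Gclm, Gss, Gsr, Ggct, Glrx, Glrx2, Glrx3, Glrx5, Glo1, Hagh and Oplah. This gave 45 members of 24015 genes, gathered by name and not by a filter on their values. The set was chosen with earlier results of these data known. HSCs of C57BL/6 mice came from bone marrow by a sort for LSK cells (no lineage markers, with Sca-1 and c-Kit) that carry CD150 but not CD48. Bulk sequencing of polyadenylated RNA gave 3 libraries of old and 4 of young HSCs. No genotype, transgene or treatment is named for either group. The labels give neither the ages of the mice nor whether a library came from 1 animal or a pool, so p-values measure only the spread between these libraries, part of which may be technical.

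Glutathione is the main low-molecular-weight thiol of the cell. It is made by glutamate-cysteine ligase (Gclc and Gclm) and glutathione synthetase (Gss), is joined to reactive electrophiles by the transferases, reduces peroxides through the peroxidases and some transferases, and is returned to its reduced form by glutathione reductase (Gsr) with NADPH. Glutaredoxins use it to reduce protein disulfides or to handle iron-sulfur clusters, and the glyoxalases Glo1 and Hagh use it to detoxify methylglyoxal. Many of these genes carry antioxidant response elements, to which the transcription factor NRF2 (gene Nfe2l2) binds. HSCs are known for a need to keep reactive oxygen species low, since oxidative stress drives them out of quiescence.

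The promoters of 4 members are shown so that matches to the elements can be seen in their place. They include the only member past the threshold (Gpx3) and the most abundant transferase (Gstm1). Gclm is the ligase subunit with the smallest p among the synthesis genes. Gstm5, a neighbouring transferase whose groups overlapped, was picked for its match to the core of the antioxidant response element. Each sequence is the 250 bases before a RefSeq transcription start in GRCm38.p6, 5′ to 3′ on the gene's strand. Capitals mark the core of the antioxidant response element (TGACNNNGC) and the core of the xenobiotic response element (GCGTG), which the aryl hydrocarbon receptor binds, on either strand. Gpx3 lies at chr11:54902604-54902853 on the + strand, Gstm1 at chr3:108017819-108018068 on the - strand (the downstream of 2 listed starts), Gstm5 at chr3:107895604-107895853 on the + strand and Gclm at chr3:122245307-122245556 on the + strand.
Gpx3: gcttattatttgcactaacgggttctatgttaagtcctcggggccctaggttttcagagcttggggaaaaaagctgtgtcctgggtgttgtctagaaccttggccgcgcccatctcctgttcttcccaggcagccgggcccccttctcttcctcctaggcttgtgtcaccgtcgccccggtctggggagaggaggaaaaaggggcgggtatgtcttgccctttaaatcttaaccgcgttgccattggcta
Gstm1: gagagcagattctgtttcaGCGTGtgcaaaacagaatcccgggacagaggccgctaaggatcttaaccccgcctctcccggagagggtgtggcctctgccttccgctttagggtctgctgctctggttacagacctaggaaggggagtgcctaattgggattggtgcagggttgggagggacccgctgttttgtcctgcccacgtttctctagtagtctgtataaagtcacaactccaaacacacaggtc
Gstm5: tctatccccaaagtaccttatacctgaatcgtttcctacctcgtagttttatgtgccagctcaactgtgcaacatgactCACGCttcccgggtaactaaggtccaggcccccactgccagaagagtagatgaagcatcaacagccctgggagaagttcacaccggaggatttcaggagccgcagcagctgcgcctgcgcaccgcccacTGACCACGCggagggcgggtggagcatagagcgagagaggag
Gclm: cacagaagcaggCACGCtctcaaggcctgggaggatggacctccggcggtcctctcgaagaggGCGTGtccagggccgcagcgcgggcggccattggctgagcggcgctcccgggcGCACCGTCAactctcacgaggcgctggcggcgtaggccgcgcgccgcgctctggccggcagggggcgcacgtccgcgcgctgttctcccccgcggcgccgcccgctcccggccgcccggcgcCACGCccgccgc

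The Gpx3 window held neither core. The window of Gstm2, which is not shown, held neither core as well, though its groups did not overlap. In Gstm1 the only match was a xenobiotic core whose first base lay at -231, counting the base before the start as -1. Gstm5 held an antioxidant core at -42 that overlaps a xenobiotic core at -38, and a second xenobiotic core at -171. Gclm held an antioxidant core on the reverse strand at -134 and xenobiotic cores at -238, -187 and -12. Of the 30 tested members with a promoter entry, 5 held an antioxidant core (Gclm, Ggct, Gstm5, Gstm7 and Mgst1), where 11.5% of 27025 genes did. A xenobiotic core was found in 13 of the 30, against 30.9% of all genes, and an AP-1 site (TGANTCA) in 4, against 7.82%. In Gstm5 the AP-1 site, at -176, overlapped the xenobiotic core at -171 and not the antioxidant core. These are matches of letters, and a window with none says only that the letters are not in it.

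Libraries held 22203806 to 32401925 counts. The sort was checked against a list of markers: all 12 HSC markers passed the filter on low counts, among them Procr, Slamf1 (which encodes CD150), Kit and Ly6a (which encodes Sca-1), with at least 11 of them detected in each library. Levels are CPM, the usual count unit scaled to library size, here after TMM adjustment. Cd48 was at 0 in old libraries and at 1.87 to 24.5 CPM in young ones. Young 1 and young 2 stood apart from the other libraries on principal components 1 and 2 (27.7% and 21.5% of the variance). Several marker lists moved with age. The summed level of the HSC markers was 3356 to 3576 CPM in old and 1857 to 2903 CPM in young libraries. Of these markers 8 had a positive and 4 a negative log2 fold change (Kit, Hlf, Tek and Meis1). The 6 progenitor markers summed to 88.4 to 147 CPM in old and 269 to 407 CPM in young libraries. Cd34 made up 91.8% to 96.4% of this in old and 81.1% to 98.0% in young libraries, and Dntt and Il7r were at 0 in all 7. The 9 neutrophil and granulocyte markers summed to 546 to 793 CPM in old and 112 to 231 CPM in young libraries, but 84.4% to 99.9% of this was Prtn3, and Mpo, Ctsg, Camp and Ltf were at 0 in the old. The 6 mast cell and basophil markers summed to 20.2 to 66.8 CPM in old and 0 to 10.4 CPM in young, with Mcpt8, Prss34, Ms4a2 and Cma1 at 0 in all 7 libraries. The 10 erythroid markers summed to 23.5 to 83.4 CPM in old and 96.3 to 138 CPM in young, with the 4 haemoglobin genes Hba-a1, Hba-a2, Hbb-b1 and Hbb-b2 at 0 in all 7. Summed markers of megakaryocytes, monocytes and dendritic cells, B cells, T and NK cells, endothelium and stroma overlapped between the groups, though old 1 stood at 1956 CPM for the monocyte and dendritic list (Cd74 its leading gene) against at most 736 CPM elsewhere. Single genes within these lists still separated the groups, with all old libraries above the young in Klrb1c, Gp9, Vwf and Emcn. Other genes went the other way. Of the 9 megakaryocyte markers 3 had a positive and 6 a negative log2 fold change, with Itga2b at -2.73 (DESeq2 adjusted p = 0.0167). Of the 6 tested monocyte and dendritic markers 2 were positive and 4 negative, with C1qa at 0 in all old libraries (DESeq2 adjusted p = 0.0441). Klrb1c, which encodes the NK cell receptor NK1.1, held 109, 238 and 186 CPM in old and 0, 0, 0 and 12.2 CPM in young libraries (log2 fold change 5.86, adjusted p = 0.324), while Nkg7 of the same list had a log2 fold change of -1.38 (adjusted p = 0.605) and Cd3e, Cd8a, Ncr1 and Gzma were at 0 in all 7. The part of these differences in the results below was not tested.

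Of the 45 members, 34 had enough counts to be tested. Over these, 1 member rose in old HSCs past an adjusted p of 0.05 (edgeR's quasi-likelihood test, Benjamini-Hochberg over all tested genes), namely Gpx3, and none fell, where 0.235% of all 11506 tested genes were called higher and 0.0174% lower. At an unadjusted p under 0.05, 6 members were higher and 1 was lower, against 4.62% and 4.49% of all tested genes. DESeq2 called 3 higher (Gpx3, Gstm1 and Gstm2; 1.90% of all genes) and 1 lower (Gstz1; 1.91%), and limma-voom called Gstm1 alone (0.426% of all genes higher, 0.00869% lower). At an unadjusted p under 0.05, DESeq2 had 7 members higher (5.34% of all genes) and 2 lower (6.99%). Restricted to the 4510 genes with mean CPM of 50 or more, 22 of them members, edgeR called Gpx3, Gstm1 and Gstm2 higher (1.75% of those genes) and 0 members lower (1.13%). In 10 members every old library lay above every young one, namely Gpx3, Gstm1, Gstm2, Gclm, Gstt2, Gstt1, Gstp1, Gpx8, Mgst2 and Ggct, against 7.55% of all tested genes. In 1, Gstz1, every old library lay below (5.18% of all). The log2 fold change, old over young, was positive in 25 members and negative in 9 (48.5% of all tested genes were positive), with a median of 0.59 against -0.03 over all tested genes. Without old 1 the median was 0.31, against -0.04 over all genes. Without young 2, 11 members were higher at an unadjusted p under 0.05. No share of all genes is given for that count, and the 4.62% belongs to the fit of all libraries. In 7 members, none of them called, the sign turned when 1 library was left out: Gclc, Glrx2, Gpx7, Gsr, Gss, Gstm6 and Hagh. Because the cells were sequenced in bulk, a change in the share of cells that express a gene and a change in RNA per cell cannot be told apart.

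**Figure D1:**
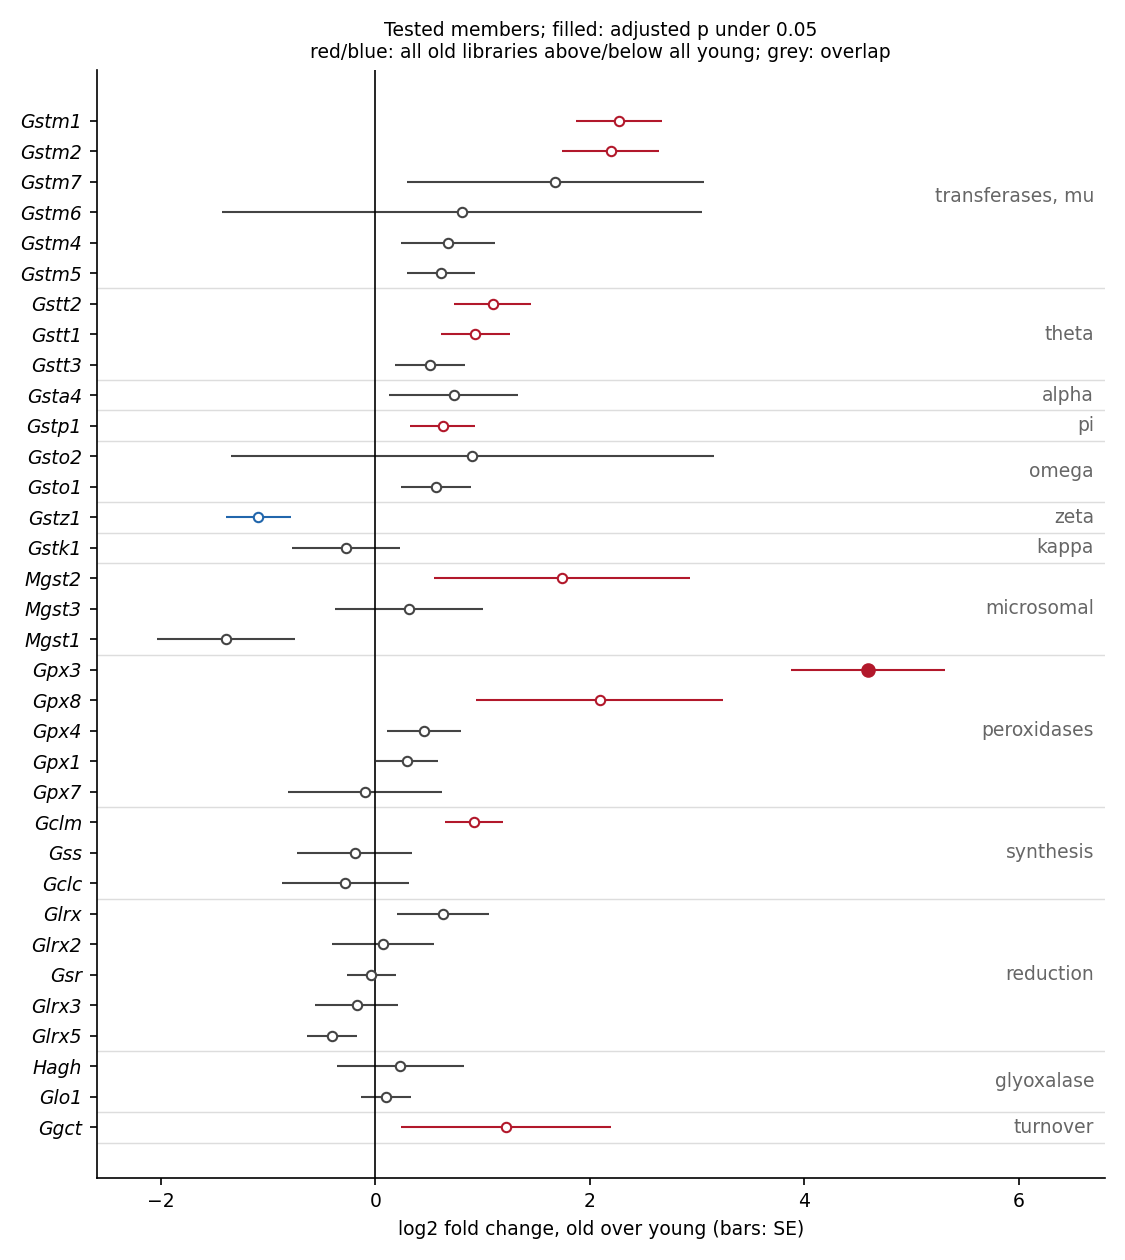
Log2 fold change of the 34 tested members, old over young, with SE bars, grouped by role. Gpx3 is the only filled point (adjusted p under 0.05). The 10 red points are members whose old libraries all lay above the young, and the blue point is Gstz1.

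The largest change among the members was that of 1 glutathione peroxidase. Gpx3, the selenium-containing peroxidase that cells secrete into plasma, held 119, 190.03 and 185 CPM in old 1, 2 and 3. The young libraries 1 to 4 held 2.37, 17.3, 3.54 and 4.11 CPM. The groups thus lay far apart, with young 2 above the other young libraries and still below all old ones. Means were 165 ± 39.7 CPM for old (SD, n = 3) and 6.83 ± 7.02 CPM for young libraries (SD, n = 4), which gave a log2 fold change of 4.59 ± 0.72 (± SE, as for all fold changes here) with an edgeR adjusted p of 0.0483. Without young 2 the log2 fold change was 5.62 and the adjusted p 0.00395, and without young 1 and young 2 together it was 5.42 (adjusted p = 0.0216). Without any one of the other 6 libraries the call was lost (adjusted p of 0.104 to 0.253), and the direction was kept in all 7 of these fits. No 50-base stretch of Gpx3 transcripts occurs in GENCODE M21 transcripts of another gene. Near matches and the rest of the genome were not searched.

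The other peroxidases differed from Gpx3 in level and in pattern. Gpx1, the cytosolic selenium-containing peroxidase and the most abundant member, held 2891, 1756 and 1964 CPM in the old and 1474, 2485, 1210.2 and 2001 CPM in the young libraries. These ranges overlapped, and the log2 fold change was 0.30 ± 0.29 with a 95% interval of -0.35 to 0.95. It was 0.05 without old 1 and 0.50 without young 2. Gpx4, which reduces lipid hydroperoxides in membranes and guards against ferroptosis, held 616, 459 and 384 CPM in old and 312, 595, 210.3 and 305 CPM in young libraries. Young 2, close to old 1, made these groups overlap (log2 fold change 0.45 ± 0.34, adjusted p = 0.848). Without young 2 the log2 fold change was 0.82 and without old 1 it was 0.24. Of 50-base stretches in Gpx4 transcripts, 51.4% also occur in the pseudogene Gpx4-ps2, so its counts are uncertain. Gpx7 and Gpx8 are peroxidases of the endoplasmic reticulum that lack selenocysteine. Gpx8 held 33.0, 11.8 and 7.49 CPM in old and 6.79, 2.97, 1.52 and 5.08 CPM in young libraries, without overlap but with old 1 far above the rest. Its log2 fold change of 2.09 ± 1.15 (adjusted p = 0.678) was 1.24 without old 1. Gpx7 averaged 20.047 ± 1.36 CPM in old against 21.5 ± 6.99 CPM in young libraries. Gpx2, Gpx5 and Gpx6 had no count in any library, and the pseudogene Gpx2-ps1 had 1 count in all.

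**Figure D2:**
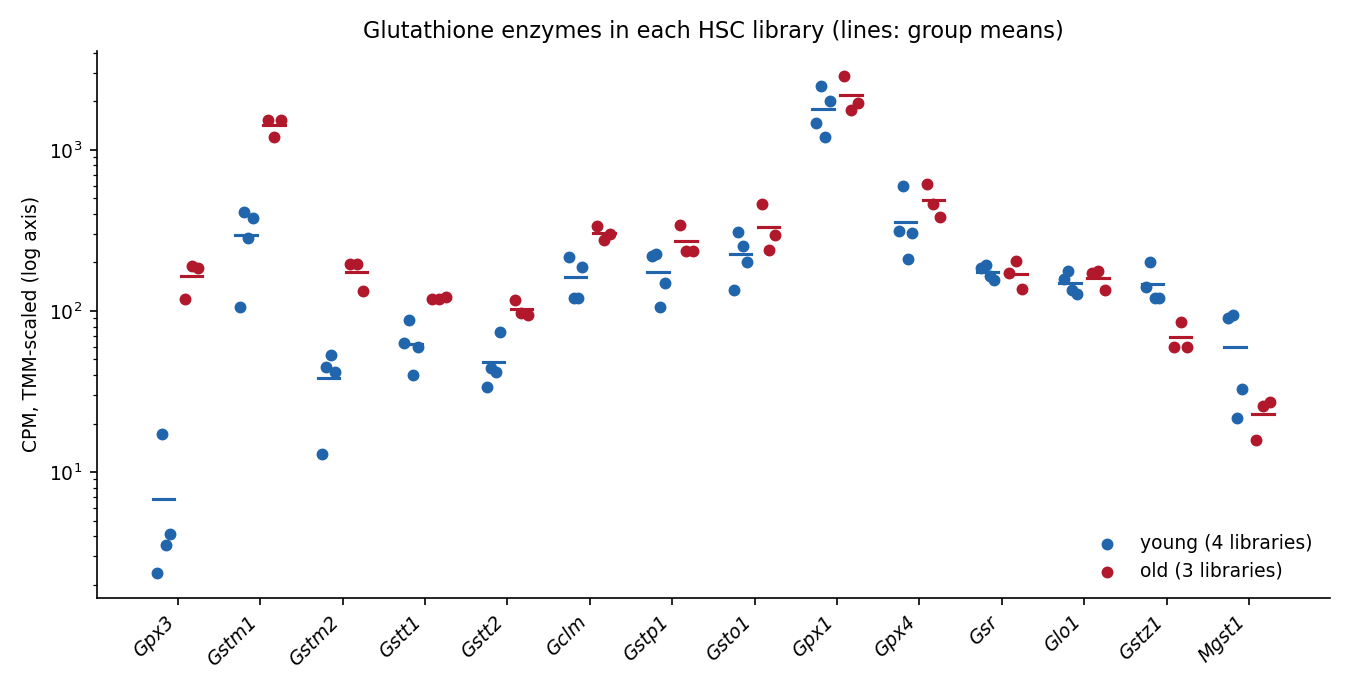
CPM (log axis) of 14 members in each library, 4 young (blue) and 3 old (red), with lines at the group means. Gpx3, Gstm1, Gstm2, Gstt1, Gstt2, Gclm and Gstp1 show no overlap with old above young, Gstz1 none with old below, and Gpx1, Gpx4, Gsr, Glo1, Gsto1 and Mgst1 overlap.

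The mu class of cytosolic transferases held the next largest differences. These enzymes conjugate electrophiles and quinones to glutathione, and RefSeq (GRCm38.p6) places all 7 Gstm genes in one cluster on chromosome 3. Gstm1 held 1541, 1201 and 1541 CPM in the old libraries. In the young libraries 1 to 4 it held 106, 413, 282 and 378 CPM. The lowest old library was well above the highest young one, and young 1 was the lowest of all. Means were 1428 ± 196 CPM for old (SD, n = 3) and 295 ± 137 CPM for young libraries (SD, n = 4), which gave a log2 fold change of 2.27 ± 0.40. Its edgeR adjusted p of 0.0760 missed the threshold. It passed without young 1 (adjusted p = 0.0304), in DESeq2 (adjusted p = 3.83e-07), in limma-voom (adjusted p = 0.00862), with no filter on low counts (adjusted p = 0.0377) and in the fit restricted to a mean CPM of 50 or more (adjusted p = 0.00760). Gstm1 missed the threshold with DESeq2 size factors, library size alone or upper quartile scaling, with robust dispersions and with the replicate number as a block. It also missed without any single library other than young 1 (adjusted p up to 0.341). The log2 fold change lay between 1.996 and 2.48 in the 7 fits without 1 library, and without young 1 and young 2 together the adjusted p was 0.0523.

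Gstm2 followed the same order of groups at a lower level. It held 197, 196 and 134 CPM in old and 13.01, 45.2, 53.4 and 41.9 CPM in young libraries, and again no old library reached down to the young ones. The log2 fold change was 2.19 ± 0.45 (edgeR adjusted p = 0.126; DESeq2 adjusted p = 0.00119; 0.0306 at a mean CPM of 50 or more). Gstm5 held 169.8, 189 and 174 CPM in old and 119, 181, 72.7 and 92.5 CPM in young libraries, where young 2 lay within the old range (log2 fold change 0.61 ± 0.32, adjusted p = 0.648). Without young 2 it was 0.91. Gstm7 had 90.9, 63.5 and 73.9 CPM in old libraries and 0, 69.1, 9.28 and 16.7 CPM in young ones. Its 3 lower young libraries were all under 17 CPM and young 2 was at the level of the old, so that the log2 fold change was 1.68 ± 1.38 with all libraries and 3.13 without young 2. Gstm4 averaged 74.7 ± 35.3 and 46.6 ± 13.1 CPM in old and young HSCs, and Gstm6 5.70 ± 7.75 and 3.25 ± 2.79 CPM. Gstm3 had 3 counts over all libraries.

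Similar sequence limits how far the Gstm genes can be told apart. The coding sequences of the 6 tested Gstm genes in GENCODE M21 were 71.9% to 85.9% identical, with Gstm1 and Gstm2 the closest pair among them. Gstm3 was not compared. Of the 50-base stretches of Gstm1 transcripts, 19.9% occur in another gene's transcripts, 14.9% in the pseudogene Gstm2-ps1. The share was 8.30% for Gstm2, 12.2% for Gstm5 and 0.532% for Gstm7. How the authors' counting treated reads that fit several places is not given in the sources used here. Summed over the whole class, Gstm transcripts stood at 2116, 1698 and 1998 CPM in old and 305, 742, 475 and 572 CPM in young libraries. The groups did not overlap in this sum.

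The theta class, which is active on small halogenated compounds and on organic peroxides, was the next in which most members lay higher. Gstt1 held 119, 118 and 122 CPM in old and 62.9, 87.6, 40.3 and 59.963 CPM in young libraries. The old libraries were within a few CPM of each other and all above the young (log2 fold change 0.93 ± 0.32, adjusted p = 0.351). Gstt2 held 118, 97.4 and 94.6 CPM in old and 33.9, 44.2, 42.0 and 73.5 CPM in young libraries, with young 4 the nearest to the old (log2 fold change 1.09 ± 0.36, adjusted p = 0.324). Gstt3 averaged 103 ± 26.2 CPM in old against 72.5 ± 16.9 CPM in young libraries, with overlapping groups. In edgeR 0 of the 3 tested theta genes passed the threshold and 2 had an unadjusted p under 0.05, while DESeq2 and limma-voom called 0. At that unadjusted p, 4.62% of all tested genes were higher and 4.49% lower in edgeR. Gstt4 had no count in any library.

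The pi and omega classes hold 2 genes each, of which 1 dominates. Gstp1, the pi-class enzyme that also binds the stress kinase JNK, held 339.9, 235 and 235 CPM in old and 219.8, 225, 106 and 149 CPM in young libraries. Old 2 and old 3 were only just above young 1 and young 2, and the log2 fold change was 0.63 ± 0.30 (adjusted p = 0.610). Of its 50-base stretches 51.0% are shared with Gstp2, which had 76 counts in all, 65 of them in old 3. Gsto1, the omega-class enzyme that reduces dehydroascorbate, held 461, 239 and 295 CPM in old and 134, 309.6, 253 and 201 CPM in young libraries, with young 2 and young 3 inside the old range (log2 fold change 0.56 ± 0.33, adjusted p = 0.718). Without old 1 it was 0.25. Gsto2 stayed under 2.20 CPM in every library.

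Gstz1 was the one transferase with all old libraries below the young. It encodes maleylacetoacetate isomerase, a step of tyrosine breakdown. The old libraries held 59.9, 85.9 and 59.8 CPM and the young 141, 203, 120.1 and 121 CPM, so that the highest old library was under the lowest young one. The log2 fold change was -1.09 ± 0.30 (edgeR adjusted p = 0.218; DESeq2 adjusted p = 0.0377). It stayed between -1.30 and -0.89 in the fits without 1 library. In its transcripts 17.2% of 50-base stretches are shared with Pomt2, so part of its counts could belong to that gene.

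The remaining transferases overlapped between the groups, apart from Mgst2. Gsta4, the alpha-class enzyme that conjugates hydroxynonenal from lipid peroxidation, held 44.1, 24.4 and 42.1 CPM in old and 29.0, 15.8, 18.9 and 25.2 CPM in young libraries (log2 fold change 0.73 ± 0.60, adjusted p = 0.881). The mitochondrial and peroxisomal Gstk1 held 46.0, 34.0 and 49.8 CPM in old and 56.9, 79.6, 22.5 and 50.6 CPM in young libraries (log2 fold change -0.28 ± 0.51, adjusted p = 0.972). Without young 1 and young 2 its sign turned, to 0.24. Gsta1, Gsta2 and Gsta3, best known from liver and kidney, had no count in any library.

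The microsomal transferases, which are membrane proteins unrelated in fold to the cytosolic classes, differed in sign. Of the 3, 0 passed the threshold in edgeR, had an unadjusted p under 0.05 or were called by DESeq2 or limma-voom. At that unadjusted p, 4.62% of all tested genes were higher and 4.49% lower in edgeR. Mgst1 held 15.7, 25.5 and 27.4 CPM in old and 90.5, 95.022, 21.7 and 32.6 CPM in young libraries. Young 1 and young 2 were high while young 3 and young 4 were close to the old libraries, and the log2 fold change of -1.39 ± 0.64 (adjusted p = 0.576) was -0.25 without those 2. Mgst2, which can form leukotriene C from its epoxide precursor, held 9.86, 12.7 and 13.024 CPM in old and 2.15, 6.30, 4.01 and 1.71 CPM in young libraries without overlap (log2 fold change 1.74 ± 1.19, adjusted p = 0.809). Mgst3 averaged 39.3 ± 10.2 CPM in old against 31.7 ± 21.9 CPM in young libraries.

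Added up, transferase transcripts were more abundant in every old library than in any young one. All 24 transferase genes together gave 3448, 2725 and 3095 CPM in old 1 to 3 and 1195, 1958, 1179 and 1359 CPM in young 1 to 4, with means of 3089.6 ± 362 CPM (SD, n = 3) and 1423 ± 366 CPM (SD, n = 4). Gstm1 alone made up 44.1% to 49.8% of this sum in old and 8.90% to 27.8% in young libraries. With Gstm1 left out the sums were 1907, 1524 and 1554 CPM in old and 1089, 1545, 897 and 981 CPM in young libraries, and young 2 then lay within the old range. Of the 18 tested transferases, 15 had a positive log2 fold change (48.5% of all tested genes) and 3 a negative one, with a median of 0.70. In edgeR 0 of the 18 passed the threshold. At an unadjusted p under 0.05, 4 were higher (4.62% of all) and 1 lower (4.49%). DESeq2 called 2 higher (1.90% of all) and 1 lower (1.91%), and limma-voom 1 higher (0.426%).

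**Figure D3:**
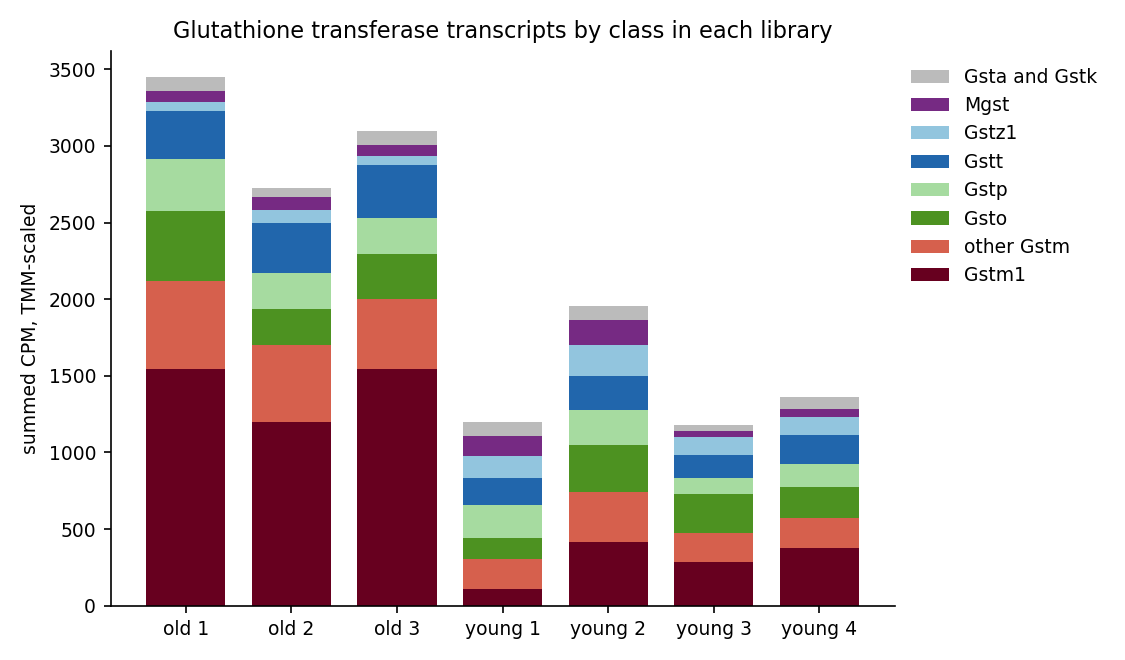
Summed CPM of the transferase genes in each library, stacked by class. The old libraries reach 2725 to 3448 CPM and the young 1179 to 1958 CPM, and the segment of Gstm1 is the largest in every old library.

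Among the genes that make glutathione, the ligase subunits differed in pattern. Gclm, the modifier subunit that raises the activity of the ligase, held 339, 275 and 301 CPM in old and 218, 121, 119.8 and 187 CPM in young libraries. All old libraries were above all young ones, by a log2 fold change of 0.92 ± 0.27 (adjusted p = 0.244; 0.80 to 1.09 without 1 library). The catalytic subunit Gclc held 15.9, 97.1 and 69.5 CPM in old and 87.1, 79.0, 93.4 and 36.4 CPM in young libraries. Old 1 and young 4 were low in their groups, and the log2 fold change of -0.28 ± 0.59 had an interval of -1.62 to 1.05. Without old 1 it was 0.17. Gss averaged 45.4 ± 7.70 CPM in old against 51.8 ± 27.6 CPM in young libraries, with a log2 fold change of -0.19 ± 0.54. Leaving out young 4 turned its sign, to 0.17.

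The genes that recycle glutathione or use it on proteins overlapped between old and young HSCs in all 5 cases. Gsr held 171, 203 and 136 CPM in old and 186, 193, 165 and 156 CPM in young libraries, which overlap fully. Its log2 fold change was -0.04 ± 0.23 with an interval of -0.55 to 0.47. Glrx5, a mitochondrial glutaredoxin of iron-sulfur cluster assembly, held 204, 173 and 149.8 CPM in old and 229, 298, 202 and 200.3 CPM in young libraries. Only old 1 reached the young range, and the log2 fold change was -0.41 ± 0.24 (adjusted p = 0.718). The cytosolic Glrx averaged 139.5 ± 47.4 CPM in old against 90.1 ± 44.9 CPM in young libraries, the mitochondrial Glrx2 53.6 ± 9.68 and 51.1 ± 24.7 CPM, and Glrx3, which also serves iron-sulfur proteins, 47.5 ± 5.75 and 53.6 ± 9.14 CPM. In edgeR 0 of these 5 genes passed the threshold, 0 had an unadjusted p under 0.05, and DESeq2 and limma-voom called 0. At that unadjusted p, 4.62% of all tested genes were higher and 4.49% lower in edgeR.

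Of the glyoxalase pair, Glo1, which condenses methylglyoxal with glutathione, held 171, 177 and 135 CPM in old and 159, 178, 135 and 128 CPM in young libraries. The ranges nearly coincide, and the log2 fold change was 0.10 ± 0.23 with an interval of -0.42 to 0.62. Hagh, which releases the glutathione again, averaged 67.7 ± 35.7 CPM in old against 57.7 ± 36.6 CPM in young libraries. Ggct, which breaks down gamma-glutamyl peptides in the recycling of glutathione, held 14.7, 13.001 and 21.6 CPM in old and 4.29, 5.21, 8.56 and 10.1 CPM in young libraries. All old values were above the young, but counts were low and the log2 fold change of 1.22 ± 0.98 did not pass (adjusted p = 0.870). Oplah, the oxoprolinase that acts after Ggct, had 1 count in all.

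Set against transcript length, the members ranked differently in the 2 groups. On a scale of CPM per kilobase of annotated exons (GENCODE M21), Gpx1 was the highest of the 34 in old and young HSCs (2056 and 1672 CPM per kilobase). Gstm1 held rank 2 in old HSCs (1044) and rank 3 in young (216), and Gpx4 the reverse (382 in old, 279.6 in young). Gstp1 and Gsto1 held ranks 4 and 5 in both. Gpx3 stood at rank 8 in old and rank 30 in young HSCs (103 and 4.28 CPM per kilobase). Gstz1 went the other way, from rank 7 in young to rank 22 in old (68.0 and 31.9 CPM per kilobase). The exon lengths belong to a later build than mm9, on which the counts were made, so the order of close neighbours is uncertain.

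Genes around the glutathione set were read from lists chosen for their role. The lists share genes. Txn1, Txnrd1, Srxn1 and Prdx1 stand in both the NRF2 target and the thioredoxin list. G6pdx, Pgd, Me1, Taldo1 and Tkt stand in both the NRF2 target and the NADPH list. In edgeR 0 genes of these 7 lists passed the threshold, and limma-voom called 0. DESeq2 called Fth1, the ferritin heavy chain, higher (log2 fold change in edgeR 0.95 ± 0.24) and Me2, the mitochondrial malic enzyme, lower (-1.14 ± 0.30). Of all genes DESeq2 called 1.90% higher and 1.91% lower. Of 18 tested NRF2 targets outside the glutathione set, 13 were positive in log2 fold change (median 0.43). At an unadjusted p under 0.05, 4 were higher and 0 lower. Of all tested genes, 48.5% were positive, and 4.62% were higher and 4.49% lower at that p. Fth1 held 2963, 1970.5 and 2295 CPM in old and 1035, 1569, 970.3 and 1415 CPM in young libraries, without overlap. Blvrb, the biliverdin reductase B, averaged 118 ± 36.9 CPM in old against 47.4 ± 23.1 CPM in young libraries (log2 fold change 1.32 ± 0.45, adjusted p = 0.340). The classical NRF2 target Nqo1, a quinone reductase, averaged 38.3 ± 7.57 and 41.7 ± 5.68 CPM, and Hmox1, the haem oxygenase, 9.70 ± 14.6 and 18.7 ± 16.4 CPM. Both overlapped between the groups; they were named after their values were seen.

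Of 10 tested NRF2 regulators, 6 were positive in log2 fold change (48.5% of all tested genes), with a median of 0.24. At an unadjusted p under 0.05, 1 was higher (4.62% of all). Nfe2l2 itself held 318, 288 and 313 CPM in old and 222, 259, 151 and 205 CPM in young libraries. All old libraries were above the young, by a log2 fold change of 0.55 ± 0.23 (adjusted p = 0.474). Keap1, which marks NRF2 for degradation, spread from 3.77 to 42.2 CPM in old and from 9.72 to 76.8 CPM in young libraries (log2 fold change -1.47 ± 0.92).

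The thioredoxin and peroxiredoxin list covers the parallel thiol-based reducing system. In it 11 of 16 tested genes were positive in log2 fold change (48.5% of all tested genes), with a median of 0.18. At an unadjusted p under 0.05, 2 were higher (4.62% of all). These were Msrb2, a mitochondrial methionine sulfoxide reductase (208 ± 17.8 CPM in old, 115 ± 32.4 CPM in young; adjusted p = 0.301), and the peroxiredoxin Prdx5 (308 ± 29.8 and 174 ± 50.3 CPM; adjusted p = 0.304). Of the NADPH-supplying enzymes, 5 of 13 were positive (median -0.17). At an unadjusted p under 0.05 Me2 alone was lower (4.49% of all tested genes) and 0 were higher (4.62% of all). Me2 held 73.0, 84.4 and 155 CPM in old and 228, 237, 237 and 214 CPM in young libraries. The pentose phosphate enzyme Tkt averaged 166 ± 29.1 CPM in old against 271 ± 98.5 CPM in young libraries (adjusted p = 0.601).

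Selenium-containing peroxidases need the machinery that inserts selenocysteine. The list read for it also held genes that do not insert selenocysteine, namely Sepp1, Lrp8 and Scly. Of the 10 tested genes of this list 3 had a positive and 7 a negative log2 fold change (median -0.83). At an unadjusted p under 0.05 Sepp1 alone was higher and 0 were lower. Of all tested genes, 48.5% were positive, and 4.62% were higher and 4.49% lower at that p. The same shares apply to the lists that follow in this paragraph. Sepp1, which encodes the selenium carrier selenoprotein P, held 1126, 731 and 905 CPM in old and 687, 666, 339.9 and 549 CPM in young libraries, without overlap (adjusted p = 0.422). Eefsec, the elongation factor for selenocysteine, held 17.4, 88.4 and 60.6 CPM in old and 121, 106, 156 and 99.1 CPM in young libraries, all old below the young (adjusted p = 0.552). Of the genes for import of precursors and trans-sulfuration, 6 of 13 were tested, 3 in each direction (median 0.09), and 0 had an unadjusted p under 0.05. Mat2b, a regulatory subunit of methionine adenosyltransferase, averaged 639 ± 133 CPM in old against 498 ± 67.6 CPM in young libraries, and the glutamine transporter Slc1a5 272 ± 125 and 391 ± 241 CPM. Slc7a11, the cystine importer, averaged 2.98 ± 2.45 and 1.25 ± 1.90 CPM and was named after its values were seen. Of 17 tested genes of glutathione breakdown, export and other uses, 8 were positive and 9 negative (median -0.05), with 1 in each direction at an unadjusted p under 0.05. These were Alox5ap, the activating protein of leukotriene synthesis (429 ± 29.7 CPM in old, 289 ± 63.3 CPM in young; adjusted p = 0.435), and the aminopeptidase Lap3 (82.0 ± 34.4 and 150.4 ± 22.8 CPM; adjusted p = 0.443).

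**Figure D4:**
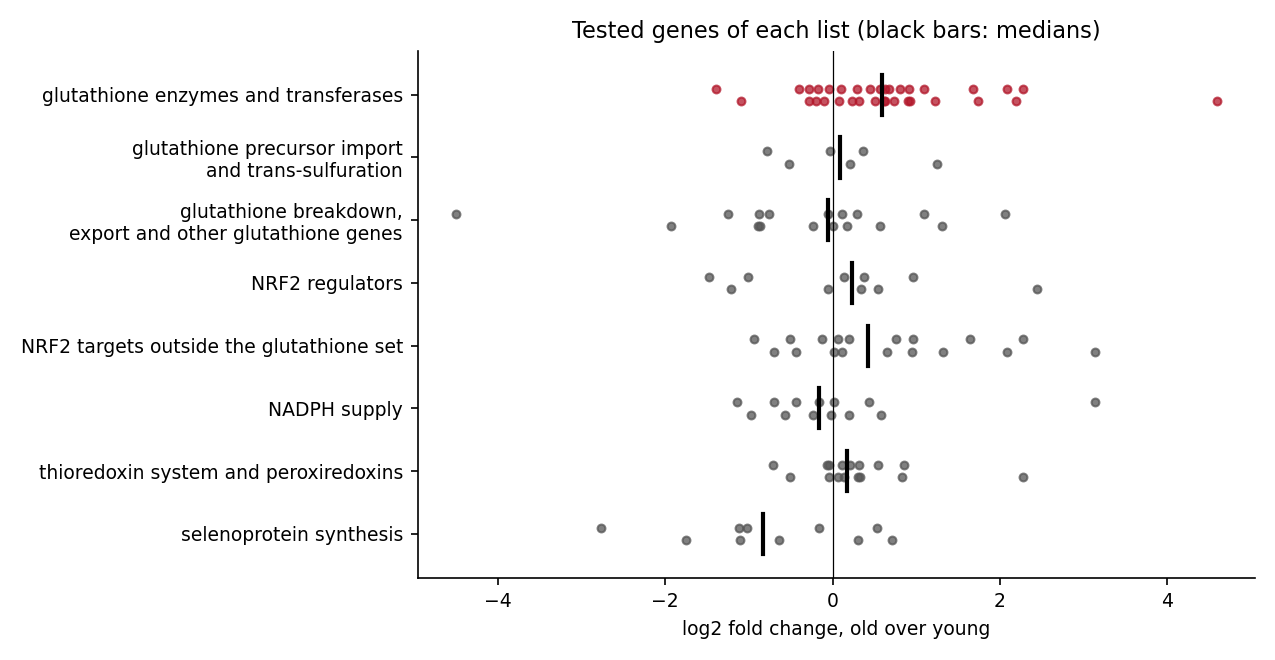
Log2 fold change, old over young, of the tested genes of the glutathione set (red) and of 7 lists around it (grey), with black bars at the medians. The medians run from -0.83 (selenoprotein synthesis) to 0.59 (glutathione enzymes and transferases). A gene that stands on several lists is drawn in each of them.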

How the data were processed

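Old and young HSCs were compared in 7 RNA-seq libraries, grouped by their labels. Per the labels' protocols, cDNA was made with Smart-seq+ and libraries with Nextera XT, a kit that leaves strand unmarked. The submitters' processing notes name Trimmomatic, FastQC, STAR, featureCounts and build mm9. No version or annotation is stated there, nor how reads with several matches were counted. Raw counts by gene symbol were deposited by the authors, with no molecular identifiers named, so limits from counting cover counting error only. A count of 0 allows up to 0.0929 to 0.137 CPM in a library (3 counts).

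The whole table was fitted with edgeR 4.0.16 under R 4.3.3 (filterByExpr with minimum count 10 and total 15, TMM scaling, quasi-likelihood F test, 2-sided, Benjamini-Hochberg over 11506 genes, threshold 0.05). DESeq2 1.42.0 and limma 3.58.1 (voom), both on the genes kept by filterByExpr, were alternatives, with other scalings, filters, robust dispersions, the replicate number as a block and each library left out. SE is the absolute log2 fold change over the square root of F, and 95% intervals use it with the test's degrees of freedom. The procedure was tested on simulated data, where it missed most of the changed genes at every size of change. A gene that was not called may thus still differ. Replicates of a group all differed by more than sampling noise.

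The members, lists and tests were chosen with earlier results of these data known. Values in every library are given for members past the threshold, the 12 with the smallest p and the most abundant of each subgroup; of each list around the set, the 2 genes with the smallest p are named. Gpx4, Gstm7, Mgst2, Gclc and Gsr are also shown by library, chosen after their values were seen. Promoter sequences are RefSeq's (GRCm38.p6), matched by symbol for 39 of 45 members; transcripts and exon lengths are GENCODE M21's. Because the counts were made on mm9, no gene positions are set beside them.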

Additional observations from a re-analysis of the deposited data

Results flagged for a closer look

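In each of the 34 tested members the 4 young libraries were searched for one that lay apart from the other 3, by the gap to its nearest neighbour as a share of the group's range (Dixon's test at the 95% level). Chance flags about 1 in 20 such groups, and 2 of the 34 were flagged. Gpx3 stood at 17.3 CPM in young 2, with 4.11 CPM in the next young library (gap share 0.883). This value lowers the difference between the groups, since the log2 fold change was 4.59 with young 2 and 5.62 without it. Gsto2 stood at 2.19 CPM in young 4, with 0.0361 CPM in the next library (gap share 0.984).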

How the results depend on the processing

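The count of members called higher was 1 with all libraries. It was 3 in DESeq2 and in the fit restricted to a mean CPM of 50 or more, 2 with no filter on low counts, and 0 with DESeq2 size factors, with library size alone and with robust dispersions. Gpx3 then had adjusted p of 0.0507, 0.0570 and 0.0501, and its log2 fold change stayed at 4.56 to 4.59. Without 1 library the count was 0 to 1, Gstm1 taking the place of Gpx3 without young 1. The count of members called lower was 0, and 1 in DESeq2. Members with an unadjusted p under 0.05 numbered 6 higher and 1 lower. The lower count was 2 in DESeq2 and 3 with library size alone. Without 1 library the counts were 5 to 11 higher and 1 to 2 lower, and no share of all genes is given for those fits. The median log2 fold change of the members, 0.59, ranged from 0.31 (without old 1) to 0.67 without 1 library and was 0.74 without young 1 and young 2, an alternative added after the data were examined. That last fit turned the sign of Gstk1 from -0.28 to 0.24. Members whose groups did not overlap numbered 10 to 13 higher and 1 to 4 lower without 1 library, and 2 lower with library size alone. With fewer libraries the groups of any gene separate more easily. No share of all genes is given for these counts, so they cannot be set against 7.55% and 5.18%. The causes were not tested. Old and young libraries share replicate numbers only as names (correlation of deviations -0.0745 to 0.0254 for equal numbers), and with the number as a replicate block 0 members were called, Gpx3 having an adjusted p of 0.356 and a log2 fold change of 4.96. Of 301 values of the 18 named members under the alternatives, 281 kept direction and call. For every named member but Gpx3, keeping the call meant staying uncalled. The 11 values that lost a call were all of Gpx3, while 8 values gained a call and 1 changed sign. The median log2 fold change of all genes, -0.03, was 0.08 in limma-voom and 0.10 with the block, the only settings that moved it by over 0.1.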
